A study of Homo sapiens with 38 samples.

Results

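The FPLC exomere libraries of this study were compared with its 3D UC sEV libraries: 4 libraries, FPLC exomere A to D, against 3 libraries, 3D UC sEV A to C, out of 38 libraries in 11 groups. The 7 libraries were chosen by their labels and not by any measured value. All came from DiFi, a human colorectal cancer cell line, and the submitters' table gives the counts of small RNAs, sorted here into 10 RNA classes by the class in each entry's name. Cells of both groups were grown in 3D, in hollow fibre bioreactors, and carried no other treatment or allele in the labels. The 3D UC sEV group holds small extracellular vesicles pelleted by ultracentrifugation (UC) from 3D medium. The FPLC exomere group holds exomeres, which are particles without a membrane, separated by fast protein liquid chromatography (FPLC) from 3D medium. Culture type was shared, so the groups differ in both particle and isolation method, and these cannot be told apart. A further group, 3D UC exomere A to C, holds exomeres pelleted by ultracentrifugation and is used only to show where the FPLC exomere libraries lay. The labels describe separate pools of 3D medium divided between methods but do not tie the library letters to pools. The p-values therefore speak of how these libraries vary, which may be technical in part.

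Cells release small RNAs in lipid vesicles and in smaller particles of protein and RNA. Mature miRNAs are short RNAs that guide Argonaute proteins to target messages. Y RNAs, vault RNAs, 7SL RNA and spliceosomal snRNAs are structured RNAs that form the core of ribonucleoprotein particles, and fragments of tRNAs and Y RNAs are abundant in extracellular samples. Counts are compared here scaled to a total of 1000000 in each library (CPM), which makes each value a share, so less of 1 RNA and more of the others cannot be told apart. In such bulk samples fewer particles of a kind and less RNA per particle also cannot be told apart.

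The 7 libraries held 2889572 to 4656610 counts each. Epithelial miRNAs of the intestine, a check of the labelled cell line, were present throughout: miR-192-5p, miR-194-5p and miR-215-5p summed to 26686 to 51346 CPM in sEV and 6967 to 56121 CPM in FPLC exomere. Of the 9 listed blood cell, endothelial and liver miRNAs 4 could be tested, and the sum over the list was 509 to 880 CPM in sEV and 76.7 to 702 CPM in FPLC exomere. The erythrocyte miRNA hsa-miR-451a stayed at or below 8.25 CPM and the hepatocyte miRNA hsa-miR-122-5p at or below 15.6 CPM. The mesenchymal and muscle miRNAs, of which 1 of 8 could be tested, summed to 27.9 to 51.9 CPM in sEV and 10.96 to 98.0 CPM in FPLC exomere. Library FPLC exomere A stood apart from B, C and D: it had a count for 2134 features, against 5675 to 6887 in the other 3 FPLC exomere libraries and 5223 to 7687 in sEV. In it 300 miRNAs were seen, against 402 to 456 in B, C and D and 626 to 680 in sEV. Every FPLC exomere library thus had fewer miRNAs with a count than every sEV library. Results that rest on FPLC exomere A are given with and without it. The name of the deposited table holds 2 project numbers, so the libraries may come from 2 runs of unknown membership, and this was not tested.

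The RNA sequences on which the comparison turns are shown before the values. The first set is the miRNAs that moved relative to the other miRNAs, together with the abundant hsa-miR-21-5p and hsa-miR-92a-3p. The sequences are those of the deposited table, printed with T in place of U and with the seed, bases 2 to 8, in capitals. For 1388 of its 1559 miRNA entries RefSeq (GRCh38) holds a mature sequence of the same name, and all 1388 were identical.
hsa-miR-130b-5p: aCTCTTTCcctgttgcactac
hsa-miR-135b-5p: tATGGCTTttcattcctatgtga
hsa-miR-141-3p: tAACACTGtctggtaaagatgg
hsa-miR-193a-5p: tGGGTCTTtgcgggcgagatga
hsa-miR-27b-3p: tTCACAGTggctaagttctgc
hsa-miR-93-5p: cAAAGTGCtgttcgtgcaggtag
hsa-miR-92a-3p: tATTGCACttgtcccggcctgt
hsa-miR-21-5p: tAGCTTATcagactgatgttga

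The second set is RNY4, the Y4 RNA gene, with copies of it that the table lists separately, shown because 1 copy behaved unlike the others. The letters are those of the GENCODE genes on GRCh38. Capitals mark the bases at the 5′ end that are identical to RNY4 without a break, and in RNY4 itself the 30 bases that all the copies share.
RNY4: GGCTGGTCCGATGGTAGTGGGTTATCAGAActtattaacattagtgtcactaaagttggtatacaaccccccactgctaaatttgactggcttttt
RNY4P10: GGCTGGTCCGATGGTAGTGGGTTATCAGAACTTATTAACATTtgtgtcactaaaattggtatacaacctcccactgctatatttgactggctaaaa
RNY4P7: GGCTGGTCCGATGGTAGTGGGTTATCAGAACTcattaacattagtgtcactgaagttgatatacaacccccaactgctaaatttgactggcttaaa
Y_RNA ENSG00000201778: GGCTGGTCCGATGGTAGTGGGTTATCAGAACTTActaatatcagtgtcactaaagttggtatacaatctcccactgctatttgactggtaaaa
RNY4P20: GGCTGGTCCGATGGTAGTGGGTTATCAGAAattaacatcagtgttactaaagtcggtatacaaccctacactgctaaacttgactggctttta
RNY4P20, at chr6:151298841-151298933 on the minus strand, parts from RNY4 after base 30, earlier than RNY4P7 (32 bases), the copy ENSG00000201778 (34 bases) and RNY4P10 (42 bases). A read that ends within those 30 bases cannot be assigned to 1 of them, and the deposited counts of such copies are uncertain as single features.

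In the shares of Y RNA and rRNA, FPLC exomere lay near sEV and away from 3D UC exomere. Y RNAs, without the Y5 RNA, whose gene lies in an lncRNA entry, made 18.4%, 21.2%, 24.4% and 20.1% of counts in FPLC exomere A to D. In sEV A to C they made 13.4%, 23.6% and 24.3%. Both groups overlapped, with means of 21.02% ± 2.55 (SD, n = 4) and 20.4% ± 6.11 (SD, n = 3), while in 3D UC exomere the mean was 75.3% ± 8.73 (SD, n = 3). Ribosomal RNA, mostly pieces of the 28S RNA of the large ribosomal subunit, made 26.2% ± 11.6 (SD, n = 4) in FPLC exomere, 19.2% ± 3.37 (SD, n = 3) in sEV and 1.88% ± 0.665 (SD, n = 3) in 3D UC exomere. The miRNA share was 10.8%, 47.7%, 19.5% and 23.2% in FPLC exomere A to D and 39.9%, 23.4% and 24.9% in sEV. The FPLC exomere libraries thus spanned the whole sEV range in miRNA and went beyond it on both sides.

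The tRNA share set FPLC exomere A apart from the rest of its group: it was 20.6% in FPLC exomere A, 1.40%, 0.958% and 3.82% in B, C and D, and 4.27%, 11.1% and 15.1% in sEV. The group means were 6.68% ± 9.34 (SD, n = 4) and 10.1% ± 5.47 (SD, n = 3), and the library with the highest tRNA share of all 7 was an FPLC exomere library. The miscellaneous class, mostly vault RNA, was 7.45% ± 5.47 (SD, n = 4) against 6.05% ± 2.32 (SD, n = 3), and snRNA was 7.49% ± 2.08 (SD, n = 4) against 9.16% ± 3.98 (SD, n = 3), and 9.35% ± 5.15 (SD, n = 3) in 3D UC exomere. The lncRNA share was 2.40% ± 1.16 (SD, n = 4) against 3.44% ± 2.06 (SD, n = 3). The lncRNA entry that contains the Y5 RNA gene made 51.7%, 82.6% and 84.5% of that class in sEV. In FPLC exomere A to D it made 46.4%, 15.4%, 13.5% and 11.1%. The entry that contains RPPH1 made 42.3% in FPLC exomere A. The lncRNA share thus says little of the other lncRNAs, whose summed share was not tested. Mitochondrial tRNA was 0.0730% ± 0.0278 (SD, n = 4) against 0.124% ± 0.0799 (SD, n = 3). The snoRNA share was 0.853%, 2.46%, 2.73% and 5.31% in FPLC exomere A to D against 2.30%, 1.86% and 1.44% in sEV, so that B, C and D lay above all sEV libraries and A below them. Endogenous retroviral elements, remnants of viral insertions in the genome, were the 1 class whose groups did not overlap, at 0.225%, 0.748%, 0.380% and 1.04% in FPLC exomere and 0.124%, 0.218% and 0.185% in sEV.

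None of the 10 class shares passed a test of the difference between the groups. In an exact two-sided permutation test of the difference in means over all 35 assignments of the 7 libraries, whose smallest possible p is 0.0286, the lowest exact p was that of the retroviral class (p = 0.114, Benjamini-Hochberg adjusted p = 0.816 over the 10 classes). A single class could not pass after this adjustment even at the smallest p, so the test cannot show that the shares are alike. Without FPLC exomere A the tRNA, snoRNA and retroviral shares each reached an exact p of 0.1, the smallest that 20 assignments allow, with adjusted p = 0.333. The FPLC exomere mean was then 2.06% ± 1.54 (SD, n = 3) for tRNA, 3.50% ± 1.57 (SD, n = 3) for snoRNA and 0.722% ± 0.329 (SD, n = 3) for the retroviral class.

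**Figure D1:**
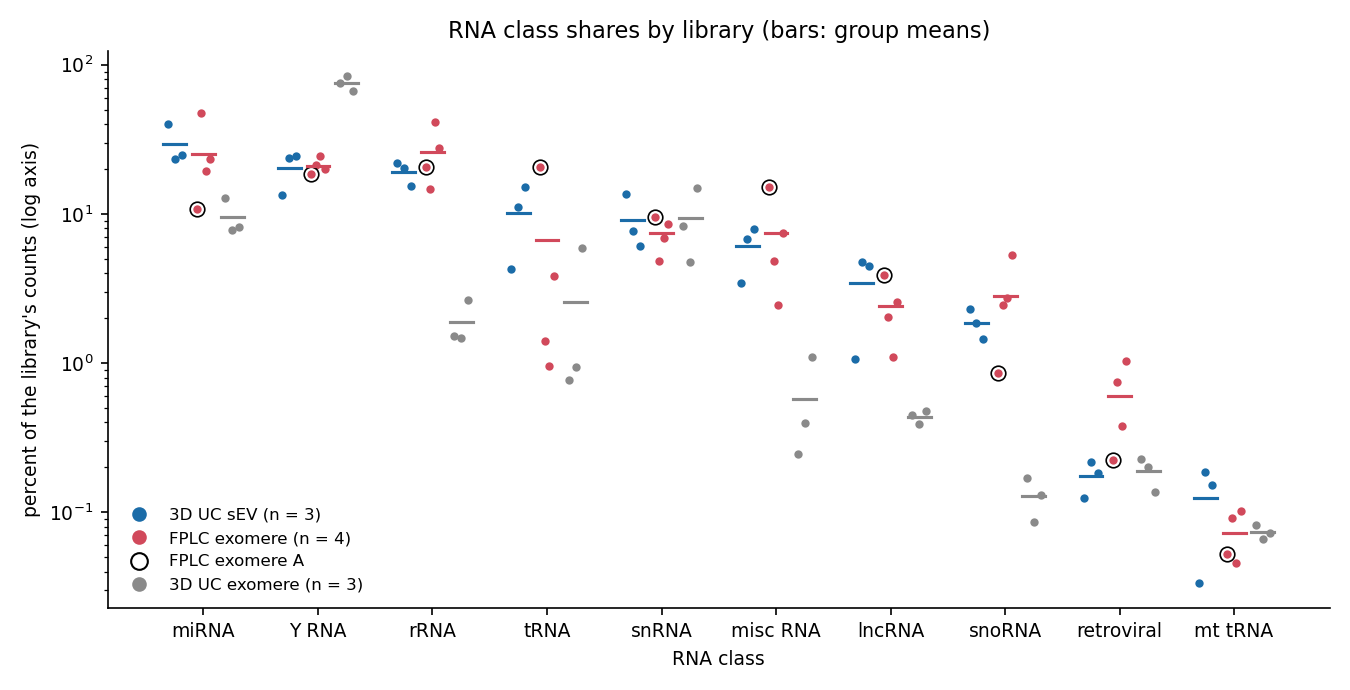
Percent of each library's counts (log axis) in the 10 RNA classes, 1 point per library and a bar at each group mean, with FPLC exomere A ringed. The Y RNA points of FPLC exomere (18.4% to 24.4%) sit among those of sEV (13.4% to 24.3%) and below those of 3D UC exomere, and the ringed library is the highest point for tRNA, at 20.6%.

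Likeness over the 1982 features tested was measured by Spearman's rho of log2(CPM + 1), across features, which are not independent replicates. The sEV libraries correlated with each other at 0.813 to 0.911, and FPLC exomere B, C and D with each other at 0.720 to 0.747. Between FPLC exomere B to D and sEV rho was 0.527 to 0.677, lower than within either set. FPLC exomere A correlated with its own group at 0.524 to 0.580 and with sEV at 0.640 to 0.657. Over all tested features it thus lay nearer to the sEV libraries than to the other FPLC exomere libraries. With 3D UC exomere rho was 0.521 to 0.643 for FPLC exomere B to D and 0.463 to 0.566 for A. The features were those that passed the count filter in the FPLC exomere and sEV libraries. The 3D UC exomere libraries had no part in that choice, so their values are not on an equal footing with those of sEV. All pairs share the method of counting but not the depth. It was 2889572 to 4656610 counts in the 7 libraries and 3380807 to 15344549 counts in 3D UC exomere. No p-value is given.

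**Figure D2:**
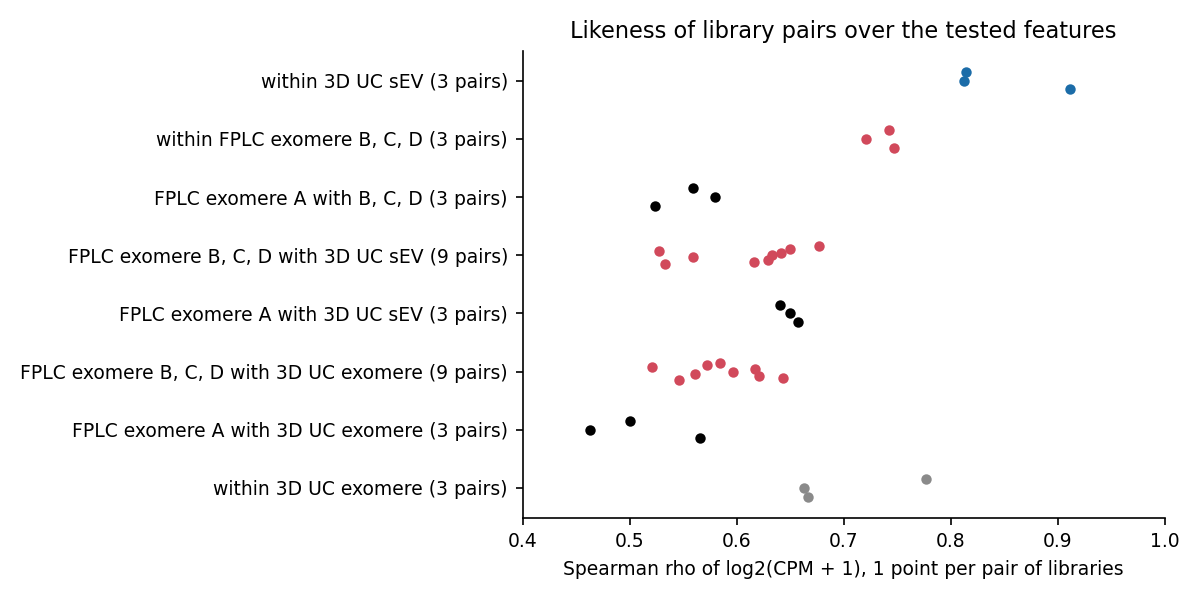
Spearman's rho of log2(CPM + 1) over the 1982 tested features, with 1 point for each pair of libraries and a row for each kind of pair. Pairs of FPLC exomere B to D with sEV (0.527 to 0.677) lie left of pairs within sEV (0.813 to 0.911), and FPLC exomere A has lower values with its own group than with sEV.

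The likeness differed between classes, again over features chosen without the 3D UC exomere libraries. Over the 320 tested miRNAs, rho between FPLC exomere and sEV libraries was 0.842 to 0.939, near that within sEV (0.934 to 0.984) and above that between FPLC exomere and 3D UC exomere for most pairs (0.724 to 0.855). For Y RNAs it was 0.670 to 0.906 between FPLC exomere and sEV and 0.375 to 0.713 between FPLC exomere and 3D UC exomere. For snRNAs it was 0.683 to 0.900 with sEV and 0.430 to 0.723 with 3D UC exomere, and for snoRNAs 0.453 to 0.702 and 0.271 to 0.508. In 3 classes the median over all pairs went the other way. For tRNAs FPLC exomere had a median rho of 0.689 with sEV (0.403 to 0.938) and 0.816 with 3D UC exomere (0.521 to 0.900), and for mitochondrial tRNAs 0.420 and 0.537. FPLC exomere B to D had medians of 0.680 and 0.824 for tRNAs and 0.309 and 0.530 for mitochondrial tRNAs. FPLC exomere A alone was nearer to sEV, with 0.812 and 0.599 for tRNAs and 0.770 and 0.559 for mitochondrial tRNAs. Within sEV the tRNA median was 0.598. For lncRNAs, where counts are sparse, the median of FPLC exomere was 0.172 with sEV (0.093 to 0.345) and 0.282 with 3D UC exomere (0.087 to 0.419). Even sEV libraries correlated with each other at only 0.382 to 0.535 in that class. For miRNAs, miscellaneous RNAs and retroviral families FPLC exomere A had a higher median rho with its own group than with sEV. The values were 0.873, 0.859 and 0.308 against 0.857, 0.716 and 0.261. In the other classes its median was higher with sEV.

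Feature by feature, the quasi-likelihood test of edgeR over the 7 libraries, which scales libraries by the trimmed mean of M values (TMM), called 0% of 1982 tested features, that is 0, at an adjusted p below 0.05. The lowest adjusted p was 0.0705. DESeq2 called 105 higher and 63 lower, and limma-voom with library weights, which gave FPLC exomere A the weight 0.179, called 193 higher and 307 lower. At an unadjusted p below 0.05 there were 138 higher (6.96%) and 170 lower (8.58%) features in FPLC exomere, and the groups did not overlap for 156 higher features (7.87%) and for 7.16% that were lower. The median log2 fold change of all tested features was 0.30, so a feature near that value moved with the bulk of the features. Other scalings put this median at 0.55 (library totals), 0.58 (RLE size factors) and 0.72 (counts other than rRNA). The count filter keeps a feature that reaches the minimum in as many libraries as the smaller group holds. Rare features can thus be tested only through the group where they are high. Numbers of positive or negative features and medians in sparse classes carry that choice. The spread between replicates was wide, with a biological coefficient of variation of 0.919. Without FPLC exomere A it was 0.656, and 63 of 1947 features were then higher (3.24%) and 151 lower (7.76%), with a median of 0.32 over all. Of these features called with TMM, 24 higher and 75 lower ones did not overlap between the groups over all 7 libraries, and 9 had the opposite sign once FPLC exomere A was put back. The 151 lower features were 49 snoRNAs, 35 tRNAs, 27 snRNAs, 10 miRNAs, 8 Y RNAs, 8 lncRNAs, 6 mitochondrial tRNAs, 4 rRNAs and 4 miscellaneous RNAs, and the 63 higher ones were 27 lncRNAs, 27 retroviral families, 4 Y RNAs, 3 snoRNAs and 2 miscellaneous RNAs. With library totals in place of TMM 38 were higher and 59 lower without FPLC exomere A.

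**Figure D3:**
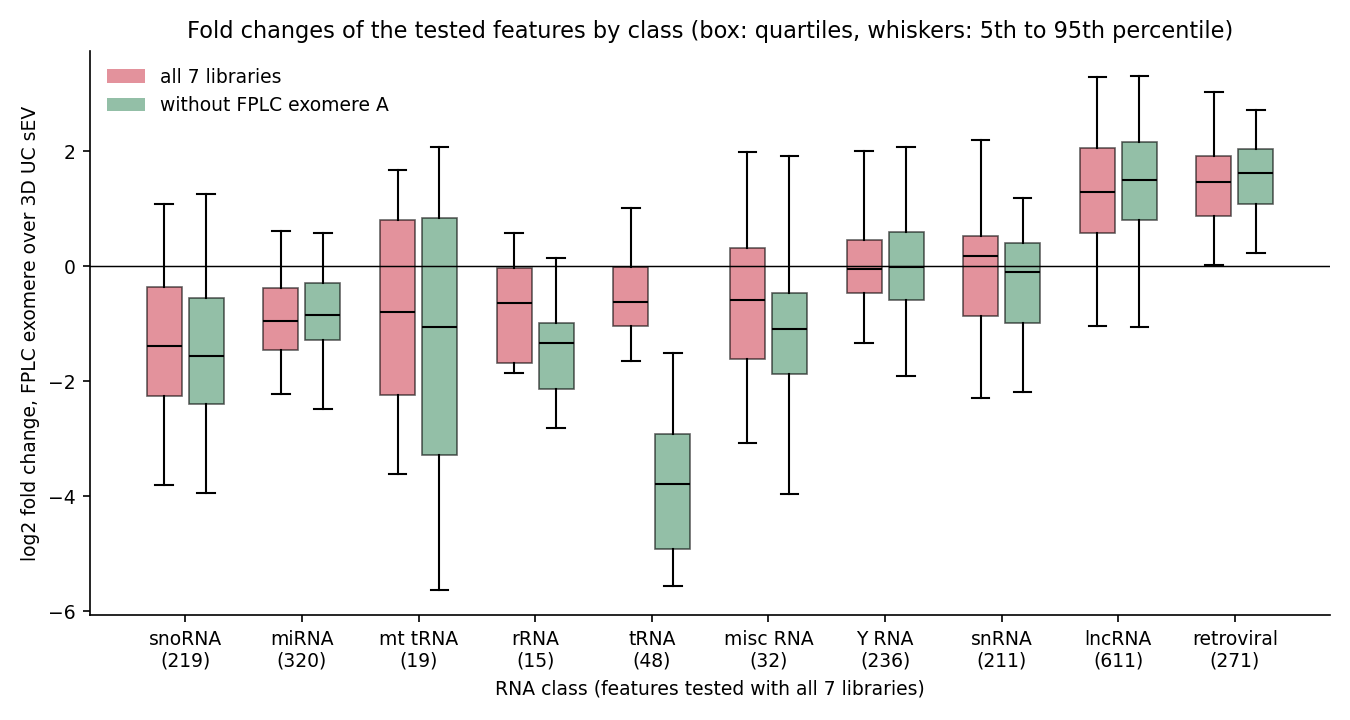
Log2 fold changes of FPLC exomere over sEV for the tested features of each class, with the number tested under each name, boxes at the quartiles and whiskers at the 5th and 95th percentiles, with all 7 libraries and without FPLC exomere A. The retroviral and lncRNA boxes lie above 0, the snoRNA and miRNA boxes below 0, and the tRNA box drops from a median of -0.62 to -3.79 when FPLC exomere A is left out.

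When each feature was instead tested as a share of its own class, so that a change in the amount of the class drops out, 19 features passed. They were 6 of 314 miRNAs (1.91%), 2 of 31 miscellaneous RNAs (6.45%), 6 snoRNAs (2.71% of those tested), 1 of 227 Y RNAs (0.441%), 3 of 20 mitochondrial tRNAs (15.0%) and 1 of 15 rRNA entries (6.67%). None of the tested retroviral families, lncRNAs, snRNAs or tRNAs passed (0% in each). The edgeR quasi-likelihood test is meant by every adjusted p below, either over all features or within a class.

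Among miRNAs the lean was toward lower values in FPLC exomere, but no single one passed over all features. Of the 320 tested 269 had a negative log2 fold change, with a median of -0.96 against 0.30 for all features. The groups did not overlap for 28 lower (8.75%) and 5 higher (1.56%) miRNAs, against 7.16% and 7.87% of all features, so the lower share was near that of all features. The median stayed negative under other scalings, at -0.52 with library totals and -0.70 with median-ratio (RLE) size factors. All 9 let-7 miRNAs, which restrain growth-promoting messages, had negative values with a median of -1.45, as did the 5 miR-200 family miRNAs, known as keepers of the epithelial state, with a median of -1.44. The same held for the 3 intestinal miRNAs (median -1.15), the 8 tested colorectal oncomiRs (-1.16) and the 5 miRNAs of the miR-23, miR-24 and miR-27 group (-1.23). The 6 tested miRNAs of the miR-10, miR-99, miR-100 and miR-125 group had a median of -0.02, 7 Drosha-independent miRNAs -0.06 and 8 miR-29 and miR-30 miRNAs -0.39, values that turned positive with library totals. None of these list members passed over the 7 libraries, and without FPLC exomere A only hsa-miR-135b-5p among them did.

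Library FPLC exomere B differed from the other FPLC exomere libraries in these families. hsa-let-7g-5p was at 16919, 9163 and 9102 CPM in sEV and at 1784, 15334, 3370 and 3631 CPM in FPLC exomere A to D. hsa-miR-200b-3p was at 22400, 10926 and 12867 CPM in sEV and 4494, 29117, 6860 and 7975 CPM in FPLC exomere. hsa-miR-194-5p was at 29304, 13821 and 15298 CPM in sEV and 3901, 30088, 7607 and 7187 CPM in FPLC exomere. In each case FPLC exomere B was above or among the sEV libraries while A, C and D were below all of them. hsa-miR-21-5p, the most abundant miRNA of sEV and a known promoter of tumour growth, followed the same pattern, at 62817, 38337 and 39742 CPM against 9238, 65574, 16155 and 14902 CPM (log2 fold change -1.30, SE 0.57, adjusted p = 0.289).

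The make-up of the miRNA class itself differed. hsa-miR-92a-3p, a product of the miR-17-92 cluster, was at 5720, 8187 and 9129 CPM in sEV and at 28465, 44960, 14656 and 13530 CPM in FPLC exomere A to D. Every FPLC exomere library was above every sEV library. As a share of miRNA counts it was 1.43%, 3.49% and 3.67% in sEV and 26.4%, 9.42%, 7.53% and 5.82% in FPLC exomere, a log2 difference of 2.10 (SE 0.57, adjusted p = 0.084 within miRNAs). In 3D UC exomere it was at 41649, 27679 and 29506 CPM. hsa-miR-1246, an entry whose sequence matches part of the U2 snRNA, was at 41024, 6811 and 3827 CPM in sEV and 2653, 9146, 66049 and 99215 CPM in FPLC exomere, so both groups held high and low libraries and overlapped. It made 34.0% and 42.7% of the miRNA counts of FPLC exomere C and D, and 2.46% and 1.92% of those of A and B.

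Within the miRNA class 4 miRNAs took a smaller share in FPLC exomere. hsa-miR-135b-5p, raised in many colorectal tumours, was at 1208, 1107 and 1320 CPM in sEV and 131, 692, 205.7 and 190 CPM in FPLC exomere, and the groups did not overlap. Its share of miRNA counts fell by 1.94 on the log2 scale (SE 0.33, adjusted p = 0.0109). hsa-miR-141-3p, of the miR-200 family, was at 4383, 1539 and 1530 CPM in sEV and 247, 1911, 560 and 334 CPM in FPLC exomere, and its share fell by 1.57 (SE 0.37, adjusted p = 0.0373). hsa-miR-27b-3p was at 4365, 3433 and 3944 CPM in sEV and 483.6, 3659, 898 and 812 CPM in FPLC exomere, and hsa-miR-93-5p at 2005, 1779 and 2233 against 271, 1865, 422 and 515 CPM. Their shares fell by 1.45 and 1.41 (SE 0.33 each, adjusted p = 0.0373 each). In CPM the last 3 overlapped through FPLC exomere B, whereas as shares of the miRNA class all 4 were lower in each FPLC exomere library than in each sEV library.

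Also within the class, 2 rarer miRNAs took a larger share. hsa-miR-130b-5p was at 23.8, 1.93 and 4.85 CPM in sEV and 32.7, 115, 33.5 and 38.2 CPM in FPLC exomere, and its share rose by 2.89 on the log2 scale (SE 0.67, adjusted p = 0.0373). hsa-miR-193a-5p, under 50 CPM and named after its values were seen, was at 12.6, 1.93 and 1.73 CPM in sEV and 23.6, 53.3, 20.6 and 30.4 CPM in FPLC exomere, and its share rose by 3.14 (SE 0.71, adjusted p = 0.0373). Both were higher in each FPLC exomere library than in each sEV library.

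For hsa-miR-135b-5p no other miRNA with its seed was tested. Those that share a seed with the other 3 had values of the same sign, although none passed. A negative sign was common in this fit, where the median over all 314 tested miRNAs was -0.53. hsa-miR-200a-3p, with the seed of hsa-miR-141-3p, had -0.92 (SE 0.35, adjusted p = 0.170) and hsa-miR-27a-3p, with that of hsa-miR-27b-3p, had -1.16 (SE 0.35, adjusted p = 0.0848). The 4 other tested miRNAs with the seed of hsa-miR-93-5p (hsa-miR-20a-5p, hsa-miR-17-5p, hsa-miR-106b-5p and hsa-miR-106a-5p) ranged from -1.05 to -0.66. For the seed of hsa-miR-92a-3p the values were 1.28 for hsa-miR-92b-3p, 0.62 for hsa-miR-25-3p and -0.61 for hsa-miR-32-5p, so this seed group was not of 1 sign.

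The calls in the miRNA class depended on single libraries: the number passing ranged from 0 to 48 when each of the 7 libraries was left out in turn. It was 0 without FPLC exomere A, without FPLC exomere C or without sEV C, 1 without sEV B or without FPLC exomere D, and 48 (5 higher and 43 lower) without FPLC exomere B.

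Y RNAs are small scaffolds of the Ro60 protein, and none of their tested parent genes passed. RNY1 was at 81337, 96572 and 95221 CPM in sEV and 61327, 72431, 82022 and 61545 CPM in FPLC exomere (log2 fold change -0.47, SE 0.53, adjusted p = 0.676). As a share of the Y RNA class it was 60.7%, 41.0% and 39.1% in sEV and 33.3%, 34.2%, 33.6% and 30.6% in FPLC exomere, without overlap, a log2 difference of -0.51 (SE 0.16, adjusted p = 0.268 within Y RNAs). RNY4 was at 10393, 29890 and 31832 CPM in sEV and 21925, 25417, 30752 and 26656 CPM in FPLC exomere (0.05, SE 0.58, adjusted p = 0.970), and in 3D UC exomere at 125540, 141264 and 112716 CPM. RNY3 was rare, at 159.4 to 220.7 CPM in sEV and 63.6 to 123 CPM in FPLC exomere, without overlap and without passing (adjusted p = 0.256). The 26 tested named pseudogenes had a median of -0.20 and the 207 unnamed copies -0.03, against 0.30 for all features.

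The copy RNY4P20 stood out among the Y RNAs. It was at 2177, 2881 and 2913 CPM in sEV and at 18851, 16446, 26964 and 24371 CPM in FPLC exomere, so all 4 FPLC exomere libraries lay far above the 3 sEV libraries. Within the Y RNA class its share rose by 2.93 on the log2 scale (SE 0.28, adjusted p = 6.59e-07), and it was the 1 Y RNA that passed. Over all features its log2 fold change was 2.98 (SE 0.63, adjusted p = 0.126), and without FPLC exomere A 2.88 (SE 0.63, adjusted p = 0.0183). With TMM scaling inside the class its adjusted p was 0.081. In 3D UC exomere it was at 17987, 19118 and 9866 CPM.

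Set against RNY4 in the same library, which removes the scaling, RNY4P20 had 20.9%, 9.64% and 9.15% of the RNY4 count in sEV and 86.0%, 64.7%, 87.7% and 91.4% in FPLC exomere. In 3D UC exomere, where Y RNAs dominate, it had 14.3%, 13.5% and 8.75%, as in sEV. The copies RNY4P10, RNY4P7 and ENSG00000201778 had 90.5% to 102% of the RNY4 count in all 10 libraries. RNY4P20, which matches RNY4 for 30 bases, thus had far fewer counts than these copies in sEV and 3D UC exomere and came close to them in FPLC exomere. How reads were assigned to the copies, and their lengths, were not tested.

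**Figure D4:**
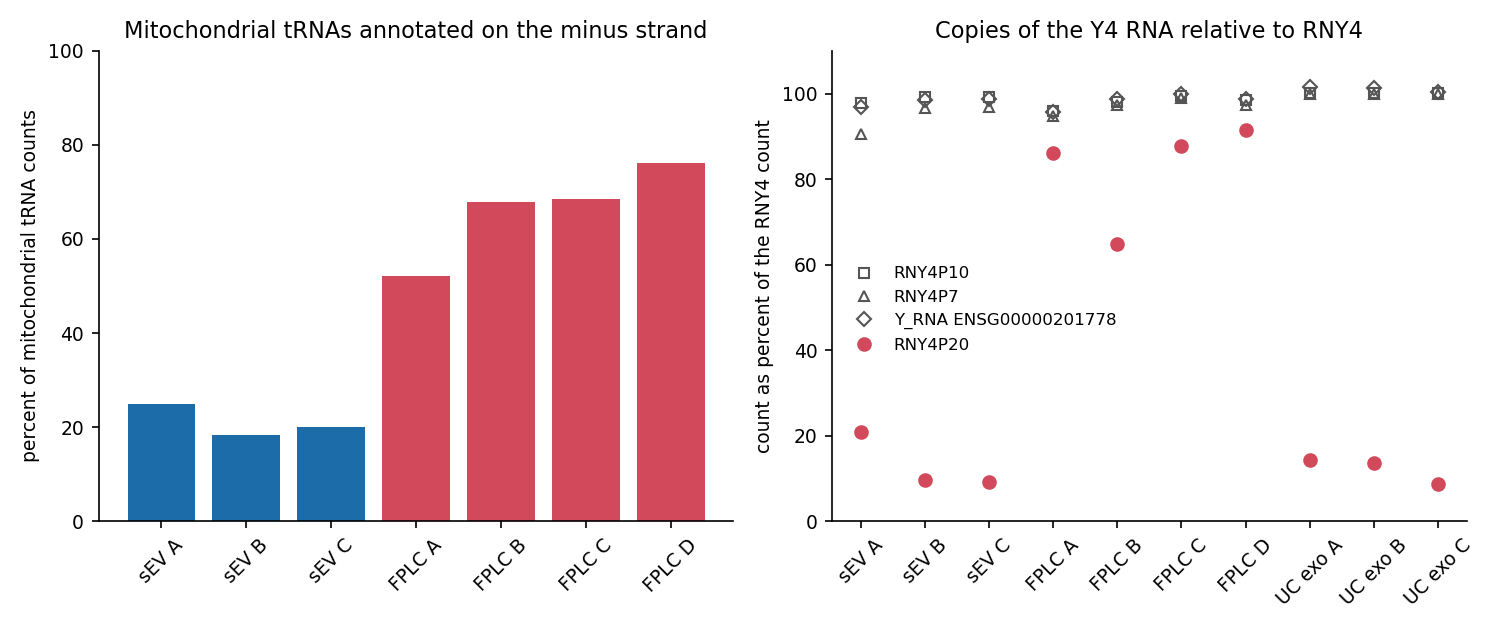
Left, percent of mitochondrial tRNA counts on entries annotated on the minus strand in each library. Right, counts of 4 copies of the Y4 RNA as percent of the RNY4 count in the same library, where RNY4P20 is at 64.7% to 91.4% in FPLC exomere and at 8.75% to 20.9% in sEV and 3D UC exomere, and the other 3 copies stay at 90.5% to 102%.

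Another Y RNA copy, ENSG00000199200, went with tRNA rather than with the group labels. It was at 110, 2322 and 2529 CPM in sEV and 6441, 314, 158 and 92.8 CPM in FPLC exomere. Its log2 fold change over the 7 libraries was positive and turned to -3.54 without FPLC exomere A.

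Nuclear tRNAs, cut into fragments in stressed cells and common in that form outside cells, differed more between libraries than between groups. tRNA-Asp-GTC was at 9286, 31164 and 36176 CPM in sEV and at 30679, 3366, 2364 and 7407 CPM in FPLC exomere A to D. tRNA-Gly-GCC, a well-known source of 5′ fragments, was at 21571, 18934 and 18039 CPM in sEV and 10556, 4428, 3052 and 19341 CPM in FPLC exomere. tRNA-Glu-TTC was at 959, 9775 and 11451 CPM in sEV and 12453, 849, 541 and 814 CPM in FPLC exomere. In tRNA-Gly-GCC FPLC exomere A was below all sEV libraries, and FPLC exomere D lay within their range. In tRNA-Asp-GTC and tRNA-Glu-TTC FPLC exomere A was like sEV B and C, and sEV A was nearer to FPLC exomere B to D. The contrast was widest in tRNA-Arg-CCT, at 30.2, 1660 and 3633 CPM in sEV and 8668, 17.2, 22.9 and 37.5 CPM in FPLC exomere. tRNA-Lys-TTT reached 60781 CPM in FPLC exomere A, against 343 to 2094 CPM in B to D and 1503 to 2821 CPM in sEV.

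Over the 7 libraries the 48 tested tRNAs had a median of -0.62, and 0 passed. Without FPLC exomere A all 48 were negative with a median of -3.79, and 35 fell, against 151 of 1947 (7.76%) among all features. Among the 9 tRNAs known for 5′ fragments 6 fell (median -2.91), and among the 39 others 29 fell (median -4.33). With library totals in place of TMM 26 of the 48 fell in the fit without FPLC exomere A, against 59 of 1947 among all features. As shares of the tRNA class 0 of 48 passed, with FPLC exomere A (median -0.19) or without it (median -0.58). tRNA-Asp-GTC made 21.8%, 28.1% and 23.998% of tRNA counts in sEV and 14.9%, 24.1%, 24.7% and 19.4% in FPLC exomere, a log2 difference of -0.24 (SE 1.01, adjusted p = 0.986 within tRNAs). The split between FPLC exomere A and the rest of its group remained in the share of tRNA-Arg-CCT, at 0.0707%, 1.495% and 2.41% in sEV and 4.22%, 0.123%, 0.239% and 0.0981% in FPLC exomere. Without FPLC exomere A its log2 difference within the class was -3.12 (SE 1.22, adjusted p = 0.278), and that of tRNA-Met-CAT was -1.98 (SE 0.93, adjusted p = 0.472). tRNA-Gly-GCC made 50.5% of tRNA counts in sEV A and 50.6% in FPLC exomere D, against 5.13% to 31.9% in the other 5 libraries.

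Mitochondrial tRNAs, encoded on both strands of the mitochondrial genome, were a rare class with a different internal make-up. The glutamate tRNA TE (chrM:14674-14742, minus strand) was at 30.3, 132.6 and 139 CPM in sEV and 181.6, 500, 239 and 577 CPM in FPLC exomere, all above sEV. Its share of the class was 8.96%, 7.13% and 9.13% in sEV and 34.5%, 54.2%, 52.2% and 56.9% in FPLC exomere, and it rose by 2.56 on the log2 scale (SE 0.23, adjusted p = 0.000104). The histidine tRNA TH (chrM:12138-12206, plus strand) was at 137, 415 and 307 CPM in sEV and 49.1, 52.6, 34.1 and 80.4 CPM in FPLC exomere, and its share fell by 1.86 (SE 0.32, adjusted p = 0.00452). Both calls held without FPLC exomere A. TL2, a leucine tRNA under the 50 CPM set for named features and picked after its values were seen, had no count in any of the 4 FPLC exomere libraries, which puts it at least 32.3-fold lower than the mean of 5.97 CPM in sEV, taking 3 counts over the group as the floor. The plus-strand valine tRNA TV was at 25.7, 659 and 506 CPM in sEV and 39.8, 9.43, 5.15 and 0.843 CPM in FPLC exomere, and it did not pass with FPLC exomere A in the fit (adjusted p = 0.122 within the class).

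Grouping these tRNAs by strand, a grouping chosen after the values were seen and given without a test, 7 of the 8 minus-strand tRNAs and 3 of the 12 tested plus-strand tRNAs had a positive log2 difference within the class. The minus-strand tRNAs made 24.9%, 18.3% and 20.1% of mitochondrial tRNA counts in sEV and 52.0%, 67.8%, 68.5% and 76.0% in FPLC exomere. TE alone held most of that share in each FPLC exomere library and less than the other minus-strand tRNAs together in each sEV library.

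Small nucleolar RNAs, guides of RNA modification in the nucleolus, had lower values in FPLC exomere for most members although the class share was not lower. Of the 219 tested 179 were negative, with a median of -1.38, and 60 were lower (27.4%) and 8 higher (3.65%) without overlap, against 7.16% and 7.87% of all features. The C/D box snoRNAs, which guide methylation, had a median of -1.56 over 129 tested of 254, and the H/ACA box snoRNAs, which guide pseudouridylation, -1.20 over 73 tested of 188. Medians stayed negative for both under every scaling tried. Without FPLC exomere A 37 of 130 C/D box snoRNAs fell and 1 rose, and 10 of 72 H/ACA box snoRNAs fell and 1 rose. Over all features 7.76% fell and 3.24% rose in that fit. With library totals these counts were 13 and 1 for C/D box and 1 and 1 for H/ACA box snoRNAs.

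The largest entries took more of the class in FPLC exomere B to D than in sEV. SNORD3A, the U3 RNA needed for processing of ribosomal RNA, was at 2115, 1112 and 892 CPM in sEV and 727, 2527, 3304 and 7457 CPM in FPLC exomere (log2 fold change 1.07, SE 0.70, adjusted p = 0.466). The 3 largest entries of each library made 27.2%, 20.4% and 19.4% of snoRNA counts in sEV and 24.8%, 30.5%, 36.1% and 42.0% in FPLC exomere. FPLC exomere A thus lay within the sEV range, and the part of these entries in the class share was not tested. SNORA21, an H/ACA box snoRNA, was at 1328, 803 and 564 CPM in sEV and 248, 274, 189 and 338 CPM in FPLC exomere, without overlap (-1.94, SE 0.57, adjusted p = 0.170, and 0.0364 without FPLC exomere A).

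As shares of the class 6 snoRNAs passed. SNORD6 was at 26.8, 173 and 119 CPM in sEV and 1.86, 19.8, 7.52 and 8.99 CPM in FPLC exomere, and its share fell by 4.08 on the log2 scale (SE 1.07, adjusted p = 0.0434). The other 5 had a mean under 50 CPM in both groups and are named after their values were seen. SNORD25 (17.2 to 67.5 CPM in sEV, 0.266 to 5.34 CPM in FPLC exomere), SNORD37 (16.1 to 68.1 against 0.266 to 5.58 CPM), SNORD98 (3.55 to 29.9 against 0 to 1.12 CPM) and SNORD58B (3.28 to 11.1 against 0 to 1.12 CPM) fell, and the entry ENSG00000207094 (0 to 0.104 against 2.26 to 17.1 CPM) rose. All 6 had an adjusted p of 0.0434, and none passed with TMM scaling inside the class. As shares of the class and without FPLC exomere A, 7 of 218 snoRNAs rose (3.21%) and 67 fell (30.7%).

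Spliceosomal snRNAs, the RNA core of the splicing machinery, split by family. U2 had a median of -1.73 over 35 tested entries, with 14 lower (40.0%) and 2 higher (5.71%) without overlap, against 7.16% and 7.87% of all features, and U5 -1.66 over 10, with 5 lower (50.0%) and 0 higher. U1 had 0.54 over 47, with 6 higher (12.8%) and 1 lower (2.13%), and U6 0.25 over 83, close to the 0.30 of all features. RNU2-1 was at 15760, 20725 and 18013 CPM in sEV and 4782, 7506, 4586 and 8021 CPM in FPLC exomere. The groups did not overlap, the log2 fold change was -1.74 (SE 0.50, adjusted p = 0.170), and without FPLC exomere A it passed (-1.82, SE 0.55, adjusted p = 0.0454). In 3D UC exomere RNU2-1 was at 30286, 17466 and 38765 CPM. In the fit without FPLC exomere A 15 of 34 U2 and 6 of 9 U5 entries fell, against 7.76% of all features. Many of them were pseudogenes that can share reads with RNU2-1 or the U5 genes. With library totals 3 U2 and 1 U5 entries fell.

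RNU5A-1 was at 1264, 652 and 410 CPM in sEV and 331, 120, 185 and 269 CPM in FPLC exomere, without overlap (adjusted p = 0.241, and 0.0409 without FPLC exomere A). RNU1-1 was higher in each FPLC exomere library, at 4026 to 4452 CPM against 2194 to 2848 CPM, with a log2 fold change of 0.67 (SE 0.56, adjusted p = 0.565). The minor spliceosome RNAs varied most within groups. RNU12 was at 83564, 8817 and 3722 CPM in sEV and 479, 4662, 24724 and 34426 CPM in FPLC exomere, and RNU11 at 892, 7032 and 6022 against 67436, 4072, 8962 and 11115 CPM. RNU12 made 61.2% of the snRNA counts of sEV A, and RNU11 made 70.2% of those of FPLC exomere A, so the snRNA share of those libraries rests largely on 1 entry.

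The miscellaneous class holds vault RNAs, components of the vault particle, with 7SL RNA, the core of the signal recognition particle, and 7SK RNA, a regulator of transcription elongation. VTRNA1-1 was at 25734, 52131 and 60609 CPM in sEV and 108166, 37228, 17374 and 50011 CPM in FPLC exomere (0.27, SE 0.72, adjusted p = 0.886), and VTRNA1-2 at 6445, 11836 and 14255 against 37048, 8011, 4743 and 18062 CPM. Within the class VTRNA1-1 held 66.8% to 77.2% of counts in all 7 libraries. In 3D UC exomere it was at 1550 to 6535 CPM. RN7SL1 and RN7SL2 passed without FPLC exomere A but not with it: RN7SL2 was at 82.1, 485 and 484.4 CPM in sEV and 342, 36.1, 16.4 and 37.4 CPM in FPLC exomere (adjusted p = 0.595, and 0.0149 without FPLC exomere A), and the 19 tested 7SL entries had a median of -1.20.

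Among 7SK entries the copies differed between the groups more than the gene itself. RN7SKP292, a 7SK pseudogene at chr4:6997012-6997328, was at 0.546, 2.65 and 2.53 CPM in sEV and 37.6, 85.3, 140.5 and 37.9 CPM in FPLC exomere, and had no count in 3D UC exomere. Its share of the class rose by 6.12 on the log2 scale (SE 1.43, adjusted p = 0.0307), and over all features its log2 fold change was 5.27 (SE 0.93), with the lowest adjusted p of all, 0.0705. RN7SKP187 was at 0.819, 16.8 and 15.2 CPM in sEV and 61.9, 167, 269 and 71.2 CPM in FPLC exomere, also without overlap (adjusted p = 0.160). The 7SK gene itself was at 0.546, 45.9 and 49.1 CPM in sEV and 52.3, 62.6, 74.0 and 29.7 CPM in FPLC exomere, and the groups overlapped (adjusted p = 0.741). RN7SKP35, under 50 CPM and picked after its values were seen, was at 6.01, 4.58 and 12.1 CPM in sEV and had no count in FPLC exomere, at least 40.9-fold lower with 3 counts over the group as the floor. Its share of the class fell (adjusted p = 0.00692). No miscellaneous RNA passed within the class without sEV B or without sEV C, and no higher one passed without sEV A.

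**Figure D5:**
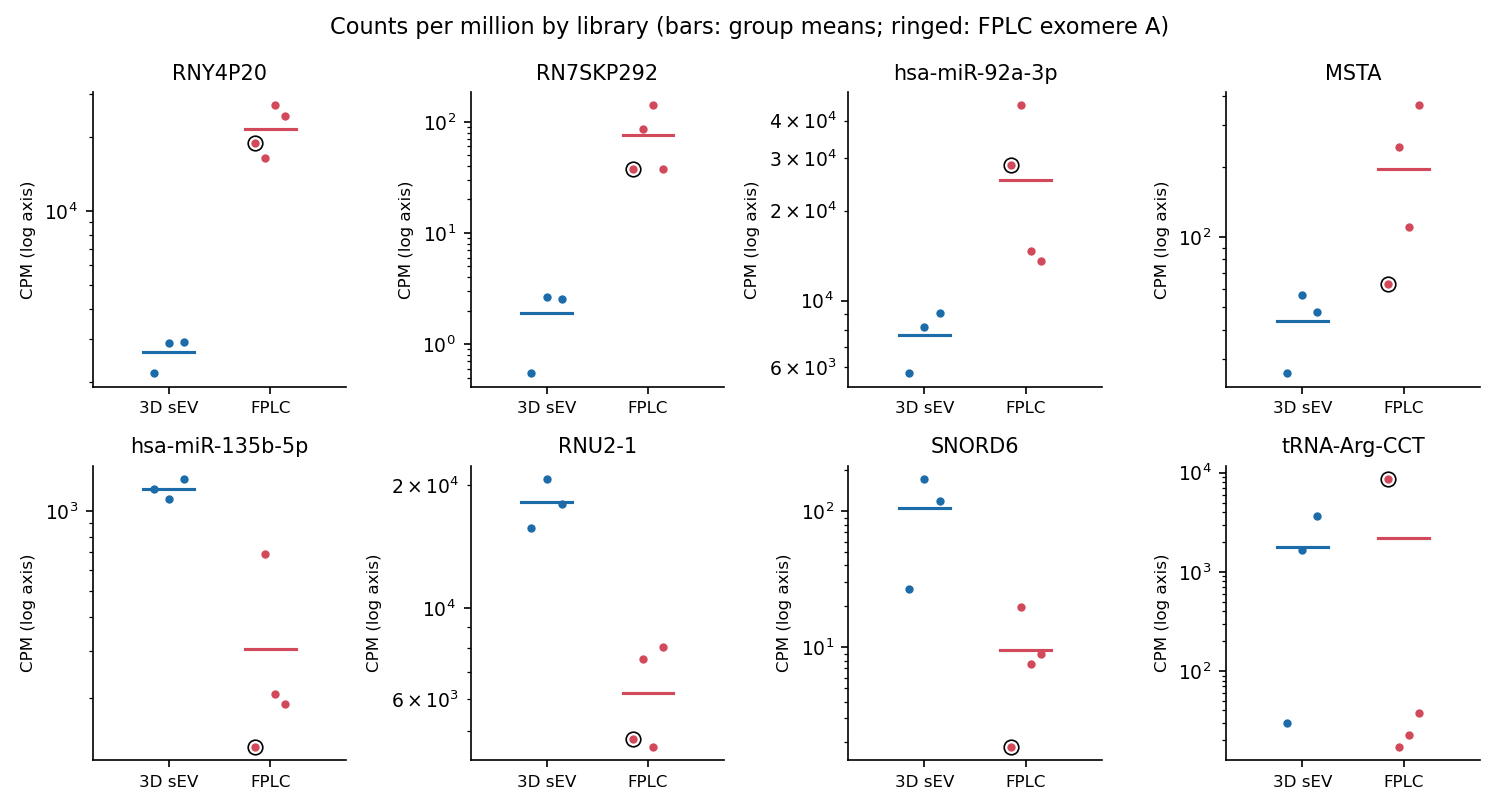
CPM by library (log axis) of 8 features, with a bar at each group mean and FPLC exomere A ringed. RNY4P20, RN7SKP292, hsa-miR-92a-3p and MSTA are higher in each FPLC exomere library than in each sEV library, hsa-miR-135b-5p, RNU2-1 and SNORD6 are lower in each, and tRNA-Arg-CCT is high in FPLC exomere A and in sEV B and C only.

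Ribosomal RNA was dominated by the 28S entry, at 207836, 162924 and 124026 CPM in sEV and 184998, 135168, 406422 and 268511 CPM in FPLC exomere (0.58, SE 0.63, adjusted p = 0.661), and at 11622, 11736 and 19427 CPM in 3D UC exomere. It made 79.9% to 95.3% of rRNA counts in sEV and 89.7% to 97.9% in FPLC exomere. The 18S entry, of the small subunit, was at 4223 to 7144 CPM in sEV and 2980 to 11400 CPM in FPLC exomere. The 5.8S entry was at 55.4, 356 and 335 CPM in sEV and 35.9, 46.7, 21.5 and 24.5 CPM in FPLC exomere, without overlap, and its share of the class fell by 3.14 on the log2 scale (SE 1.00, adjusted p = 0.0374). That call held in 1 of 7 fits with a library left out, the one without sEV A. RNA5S1, a 5S gene, was at 2128, 17260 and 9545 CPM in sEV and 5233, 2089, 1430 and 1671 CPM in FPLC exomere (adjusted p = 0.289, and 0.0243 without FPLC exomere A). The 11 tested 5S and 5.8S entries had a median of -0.89.

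Long noncoding transcripts had higher values in FPLC exomere for most tested entries, from very few counts each. The table lists 15828 of them, 611 were tested and 534 of these were positive, with a median of 1.29 against 0.30 for all features. Entries nearly absent from sEV could pass the count filter through FPLC exomere alone, so the number of positive entries and the median carry that choice. The groups did not overlap for 52 higher (8.51%) and 10 lower (1.64%) entries, against 7.87% and 7.16% of all features, so the higher share was near that of all features. When FPLC exomere A was left out 27 of 597 rose and 8 fell, with a median of 1.5. Over all features 63 of 1947 rose and 151 fell in that fit, so the part of lncRNAs that rose was not far above that of all features. SNHG20 and EGFR-AS1, named after their values were seen, were among those that rose. SNHG20 was at 36.6, 25.1 and 17.3 CPM in sEV and 134, 255, 120 and 142.5 CPM in FPLC exomere, and had no count in 3D UC exomere. EGFR-AS1, which lies opposite the EGFR gene and cannot be told from it without strand, was at 5.74, 16.4 and 16.6 CPM in sEV and 42.8, 98.5, 41.0 and 153 CPM in FPLC exomere. Their adjusted p was 0.133 and 0.160 with all 7 libraries and 0.0257 for both without FPLC exomere A. FPLC exomere A had a count for 458 lncRNAs, against 3055 to 4292 in the other 3 libraries.

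The most abundant entries of the class moved the other way or not with the groups. ENSG00000286171 (GRCh38, chr7:148941483-148941638, plus strand) wholly contains RNY5, the Y5 RNA gene of 84 bases in RefSeq, which the table does not list under its own name. It was at 5538, 39261 and 38016 CPM in sEV and 18043, 3161, 1490 and 2843 CPM in FPLC exomere (-1.88, SE 1.08, adjusted p = 0.434), and it fell without FPLC exomere A (-3.88, SE 0.74, adjusted p = 0.0149). It made 51.7%, 82.6% and 84.5% of lncRNA counts in sEV and 46.4%, 15.4%, 13.5% and 11.1% in FPLC exomere, and the class shares of the other lncRNAs are larger where its share is smaller. As shares of the class 290 of 729 lncRNAs were higher (39.8%) and 5 lower (0.686%) without FPLC exomere A, and the part of this entry in that count was not tested.

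ENSG00000259001 (chr14:20343048-20343685, minus strand) contains RPPH1, the RNA of ribonuclease P, and was at 1492, 2108 and 1710 CPM in sEV and 16439, 2432, 1939 and 1899 CPM in FPLC exomere. Only FPLC exomere A stood above the rest. GAS5, a snoRNA host transcript, was at 399, 365 and 299 CPM in sEV and 160, 168, 107 and 169 CPM in FPLC exomere, without overlap (-1.36, SE 0.53, adjusted p = 0.245). SNHG1, another host transcript, was at 260, 418 and 287 CPM in sEV and 124, 102, 61.6 and 87.7 CPM in FPLC exomere, and fell without FPLC exomere A (-2.31, SE 0.58, adjusted p = 0.0241, against 0.171 with it).

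Retroviral families had positive values for most members. Of 271 tested 257 were positive, with a median of 1.46, and 56 were higher (20.7%) and 0 lower without overlap, against 7.87% and 7.16% of all features. With FPLC exomere A left out 27 of 263 rose and 0 fell (median 1.63), against 63 and 151 of 1947 for all features, and 13 rose with library totals. MSTA, of the mammalian long terminal repeat group, was at 26.0, 56.6 and 47.7 CPM in sEV and 62.6, 242, 110 and 366 CPM in FPLC exomere (1.83, SE 0.62, adjusted p = 0.186, and 0.0438 without FPLC exomere A). THE1B was at 43.3, 43.2 and 36.8 CPM in sEV and 87.9, 173, 107 and 283 CPM in FPLC exomere (adjusted p = 0.185, and 0.0556 without FPLC exomere A). LTR7_HERVH was at 25.5, 47.4 and 39.9 CPM in sEV and 68.5, 154, 90.9 and 191 CPM in FPLC exomere (adjusted p = 0.238). All 3 were higher in each FPLC exomere library. As shares of the retroviral class they differed little: MSTA made 2.10%, 2.60% and 2.58% of the class in sEV and 2.78%, 3.24%, 2.89% and 3.53% in FPLC exomere (0.35, SE 0.19, adjusted p = 0.985 within the class). These entries count reads over many genomic copies, and reads from transcripts that contain such repeats cannot be told apart from retroviral RNA.

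The 3D UC exomere group shares the labelled particle with FPLC exomere and the isolation method with sEV. The same edgeR test of FPLC exomere against 3D UC exomere, which uses the same FPLC exomere libraries, called 140 higher (6.81%) and 93 lower (4.52%) of 2057 features. The balance of directions depended on the scaling and on single libraries. With library totals 271 were higher and 24 lower, and without FPLC exomere A 237 and 153. In the 6 fits that left out another of the 7 libraries, more were lower than higher, with 31 to 69 higher and 86 to 121 lower. The snoRNAs had a median of 3.00 there, with 30 higher and 0 lower, and the U2 entries -3.65, with 1 higher and 21 lower. The Drosha-independent miRNAs had a median of -2.28, with 6 of 7 lower. In CPM hsa-miR-320a-3p overlapped in all 3 groups, at 3436 to 5458 CPM in sEV, 3068 to 8458 CPM in FPLC exomere and 4142 to 7192 CPM in 3D UC exomere, while its TMM log2 fold change against 3D UC exomere was -1.74 (SE 0.47, adjusted p = 0.0381). The lncRNAs and the retroviral families had medians of -0.04 and 0.01 there, against 1.29 and 1.46 relative to sEV. Since both comparisons use the same FPLC exomere libraries, their values are given side by side only.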

How the data were processed

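Small RNA libraries were made from AlkB-treated RNA, in which methyl groups that stop reverse transcription are removed, and the authors deposited 1 table of expected counts per RNA feature, not scaled between libraries. The submitters' processing notes name cutadapt 4.5, FastQC 0.12.1, Bowtie 1.3.1 and the genome build GRCh38.p13. The counting tool and the annotation are not given in the sources used here. Reads that fit several features appear to be divided: 7.8% of the values of the 7 libraries are not whole (tolerance 1e-06), and in the tRNA class 76.68% of the values of these libraries. The steps of the FPLC isolation are not given in the labels used here.

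After rounding, the 7 libraries alone were fitted in R 4.3.3 by the robust quasi-likelihood test of edgeR 4.0.16 (glmQLFit and glmQLFTest), with TMM scaling and filterByExpr at a minimum count of 10, and Benjamini-Hochberg adjusted p below 0.05 as the threshold. Within-class tests used the class total as library size with no further scaling. The mitochondrial tRNA and rRNA classes were added to these after the data were seen. Each SE was taken as |log2 fold change| over the square root of F. CPM rests on library totals, so its ratio can differ from a log2 fold change under TMM. Class shares were compared by exact two-sided permutation tests. Alternatives were DESeq2 1.42.0, limma 3.58.1 with voom, other scalings, no filter, more libraries in the fit, a replicate block and leaving out each library. The scripts were tested on simulated data.

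Depth was 2889572 to 4656610 counts per library. Reads carry no molecular identifiers in the table and PCR copies count separately, so floors cover counting error only.

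The comparison, the feature lists and the naming rule were chosen with earlier results of these data known. Named are the 3 most abundant features per class, up to 4 members of each list by mean CPM, a fixed set of 12 RNAs, the 5 largest changes in each direction that passed, and within a class the 3 largest in each direction whose higher group averaged 50 CPM or more. Only part of these are printed. Sequences of miRNAs are those in the deposited table, checked against RefSeq.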

Additional observations from a re-analysis of the deposited data

Results flagged for a closer look

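In 21 of the 74 values checked, 1 of the 4 FPLC exomere libraries lay so far from the other 3 that its gap to the nearest passed Dixon's 95% critical value for 4 samples. Chance alone gives about 1 in 20 groups if the values are normally distributed, which was not tested for these CPM values and shares. A feature with a count in only 1 of the 4 libraries, as hsa-miR-451a and SNORD98, always passes. The number flagged can therefore not be set against that rate. The sEV group, with 3 libraries, cannot be checked in this way. The values are not independent, since they come from the same 4 libraries.

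FPLC exomere A was the library set apart in 8 of them. Its tRNA share of 20.6% stood against 0.958% to 3.82% in B, C and D. Its CPM was 60781 for tRNA-Lys-TTT (343 to 2094 in the others), 12453 for tRNA-Glu-TTC (541 to 849) and 8668 for tRNA-Arg-CCT (17.2 to 37.5). It was 18043 for ENSG00000286171, the entry over RNY5 (1490 to 3161), 16439 for ENSG00000259001, the entry over RPPH1 (1899 to 2432), 67436 for RNU11 (4072 to 11115) and 342 for RN7SL2 (16.4 to 37.4). All these were high in A.

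FPLC exomere B was the library set apart in more of these values than A, nearly all of them miRNAs. Its CPM was 65574 for hsa-miR-21-5p (9238 to 16155 in the others), 15334 for hsa-let-7g-5p (1784 to 3631), 29117 for hsa-miR-200b-3p (4494 to 7975) and 30088 for hsa-miR-194-5p (3901 to 7607). It was 1865 for hsa-miR-93-5p (271 to 515), 13672 for hsa-miR-10a-5p (4156 to 5505), 3659 for hsa-miR-27b-3p (483.6 to 898), 692 for hsa-miR-135b-5p (131 to 205.7) and 115 for hsa-miR-130b-5p (32.7 to 38.2). The rare hsa-miR-451a had 8.25 CPM in B and no count in the other 3, and the lncRNA SNHG20 had 255 CPM in B against 120 to 142.5. The miRNA share of B was 47.7%, against 10.8% to 23.2% in A, C and D.

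GAS5 was low in FPLC exomere C, at 107 CPM against 160 to 169 in the others. SNORD98 had 1.12 CPM in FPLC exomere D and no count in A, B and C.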

How the results depend on the processing

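The share of tested features called over all features, 0%, stayed at 0% with library totals, RLE size factors and the total of counts other than rRNA. It was 0.718% without the filter on low counts (4 higher, 54 lower), 8.48% with DESeq2, 1.11% in a fit of 37 libraries and 1.90% in one of 38. Leaving out each library in turn gave 0% to 10.99%, namely 2.62%, 0.139% and 0.428% without sEV A, B and C, 10.99% without FPLC exomere A and 0% without B, C or D. Alternatives added after seeing the data gave 19.2% with DESeq2, 10.84% with RLE and 4.98% with library totals, all without FPLC exomere A, and 25.2% with limma-voom and library weights. Within the 8 classes planned, 0.725% of features (5 higher, 10 lower) became 1.11% with TMM inside the class (14 higher, 9 lower) and 0.747% of a larger set without the filter (8 higher, 52 lower), and 0.0633% to 18.2% when 1 library was left out (2 calls without sEV B or sEV C, 5 and 6 without FPLC exomere C and D, 34 without sEV A, 66 without FPLC exomere B, 376 without FPLC exomere A). No class share could have passed with a library left out, where the smallest exact p is 0.1 or 0.0667, so these fits say nothing of its stability. FPLC exomere against 3D UC exomere called 11.3%, and 4.34% to 19.4% with 1 library left out (33 higher and the rest of 139 lower without 3D UC exomere A, 34 higher and 86 lower without FPLC exomere C, 31 and 87 without FPLC exomere D, 237 and 153 without FPLC exomere A). The cause of these differences was not tested.

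Same-lettered libraries did not deviate together: the correlations of their deviations from the group means were -0.337, -0.228 and -0.239 for A, B and C. With the replicate letter as a block 0.252% were called over all features (5), 0.484% within classes (10) and 1.60% against 3D UC exomere (33).

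The named features over all their alternatives gave 2760 values, of which 2096 kept direction and side of the threshold, 384 passed only under the alternative, 272 were uncalled values that changed sign and 8 reversed with a call. The reversed values were -1.70 for hsa-miR-1-3p with limma-voom, for ENSG00000199200 -3.63 with DESeq2 and with RLE, and for tRNA-Arg-CCT -6.449 with DESeq2 and with RLE and -6.104 with library totals, the last 2 features without FPLC exomere A. With TMM and 1 library left out in turn ENSG00000199200 ranged from -3.54 to 0.99 and tRNA-Arg-CCT from -6.39 to 1.62, both lowest without FPLC exomere A.

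Depth limits the rare classes: 1982 of the 22549 features passed the filter, 611 of 15828 lncRNAs among them.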
